A study of Rattus norvegicus with 9 samples.

Results

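The enzymes that break down glucose and glycogen, pass pyruvate into the mitochondrion and turn the citric acid cycle were followed in the posterior cricoarytenoid, the laryngeal muscle that opens the vocal folds, of rats aged 6, 18 and 30 months. A list of 47 genes was written by pathway step, and its members were the genes for which a probe set on the array carries that gene symbol alone in the platform's annotation. A gene with several such probe sets was represented by its brightest one on average over the arrays. This gave 38 of the 47 genes, against 4737 genes with a symbol of their own on the array. *Gpi*, *Tpi1*, *Eno2*, *Ldha*, *Gys1*, *Pcx*, *Idh3a*, *Idh3b* and *Fh* were not matched and were not analysed here. There were 3 arrays per age, 9 in all, of the Affymetrix Rat Genome U34 design. Tissue of 4 animals went into every RNA sample, so replicate error here is the variation among pools, and precision is set by how few arrays there are. The labels give no strain, sex or treatment for the animals, and the study took the youngest age as its baseline.

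Glycolysis splits glucose into pyruvate in the cytosol and yields ATP without oxygen, and skeletal muscle, fast fibres above all, relies on it during brief, strong work. Many of its steps have a muscle form of the enzyme and 1 or more forms that are typical of other tissues, each from a gene of its own. Glycogen phosphorylase frees glucose units from stored glycogen, the pyruvate dehydrogenase complex commits pyruvate to oxidation under the control of inhibitory kinases, and the citric acid cycle then feeds the respiratory chain.

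No member passed the threshold at any age. Of the 38 genes, 34 passed a filter that kept the upper 60% of probe sets by mean signal, and these were tested in a fit over all 5244 probe sets past it (limma, Benjamini-Hochberg adjustment over all 5244, threshold 0.05). Members past an adjusted p of 0.05 numbered 0 of 34 at 18 against 6 months, where 0.0763% of all tested probe sets were called. They numbered 0 of 34 at 30 against 6 months, where 0.324% were called, and 0 of 34 at 30 against 18 months, where 0.0191% were called. A moderated F-test for any difference among the 3 ages also called 0 of 34, against 0.267% of all probe sets, and the smallest adjusted p of a member in it was 0.615. At an unadjusted p under 0.05 there were 1, 2 and 0 members in the same order of comparisons, or 2.94%, 5.88% and 0% of 34, against 8.62%, 12.9% and 3.20% of all probe sets, and 0 in the F-test, against 8.92%. In both directions separately, 0 members were higher and 1 lower at 18 against 6 months (2.99% and 5.63% of all probe sets), and 2 higher and 0 lower at 30 against 6 months (4.18% and 8.73%). A rule close to the study's own, a ratio of mean signals over 1.7 with no overlap between ages, gave 0 members in each comparison, against 1.43%, 2.23% and 0.629% of all probe sets (18 against 6, 30 against 6 and 30 against 18 months). At shares this low, a count of 0 among 34 is near the background. A p that misses the threshold does not show that a gene was unchanged, so the intervals of the changes are given with the values.

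Those intervals were narrow for most members. A change is given here on the log2(signal + 32) scale, where 1 is a doubling, and its 95% interval comes from the same limma fit and is not adjusted for the number of genes. At 18 against 6 months, the interval of 33 of 34 members lay within a 2-fold change in either direction, and that of 28 lay within 1.5-fold. Over all tested probe sets the shares were 92.0% and 62.3%. At 30 against 6 months the counts were 33 and 27 of 34, against 90.8% and 57.6% of all probe sets. From 18 to 30 months they were 32 and 28, against 94.0% and 69.3%. *Gpd2* at 18 months and *Pdk4* at 30 months were the members whose interval against 6 months reached past 2-fold, and both reached past it between 18 and 30 months. The spread between arrays of the same age had a median of 0.14 (SD, log2) over the members, from 0.071 for *Pdha1* to 0.53 for *Gpd2*. All tested probe sets had a median of 0.20, and the 1049 brightest of them, which include 25 of the 34 members, one of 0.14.

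**Figure D1:**
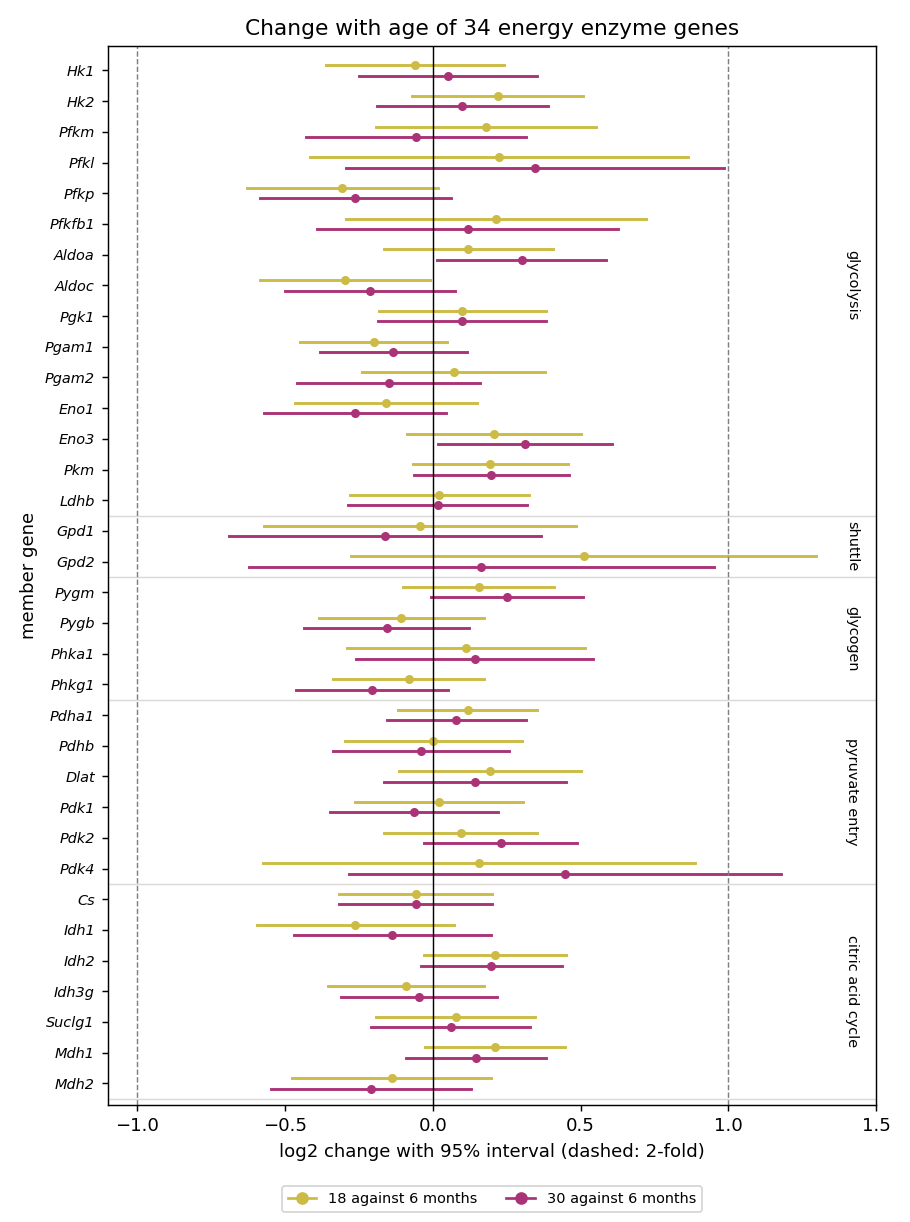
Log2 change of each of the 34 tested members (rows, by pathway section) at 18 months (yellow) and 30 months (purple) against 6 months, with 95% intervals from limma on the x axis and dashed lines at a 2-fold change. Most intervals cross 0 and stay inside the dashed lines, with the exceptions of *Gpd2* at 18 months and *Pdk4* at 30 months. *Aldoa* and *Eno3* lie just above 0 at 30 months and *Aldoc* just below it at 18 months.

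As a group the members lay close to where strongly expressed probe sets lay in general. The median log2 change of the 34 was 0.09 at 18 against 6 months, with 22 higher and 12 lower, and 0.06 at 30 against 6 months, with 19 higher and 15 lower. From 18 to 30 months it was -0.0092, with 14 higher and 20 lower. Over all tested probe sets the medians were -0.04, -0.05 and -0.02, and 42.3%, 41.2% and 45.9% lay above 0. Over the 1049 brightest they were 0.04, 0.04 and -0.0030, and the 25 members among these had medians of 0.09, 0.06 and -0.0126. After quantile normalization the members' medians at 18 and 30 months against 6 months were -0.0087 and -0.0139, with 16 of 34 members above 0 in each. Without replicate 2 of 6 months the median at 30 months was -0.0019. The comparisons at 18 and 30 months share the 6-month arrays, so they are not independent of each other.

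**Figure D2:**
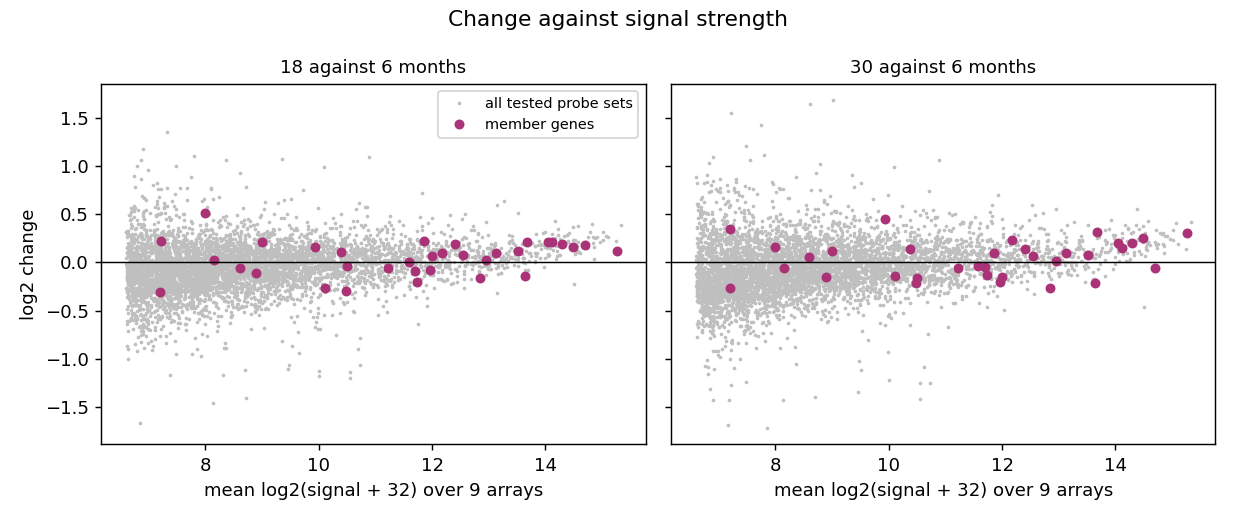
Log2 change (y axis) of all 5244 tested probe sets (grey) and the 34 members (purple) at 18 and at 30 months against 6 months, by mean log2(signal + 32) over the 9 arrays (x axis). The members lie inside the grey cloud, mostly at its strong end, where the cloud is narrow and its centre lies slightly above 0.

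At the entry to glycolysis, hexokinase traps glucose as glucose 6-phosphate, and *Hk2* encodes the insulin-responsive form of muscle. *Hk2* read 3382, 3364 and 3464 on the 3 arrays at 6 months, 3325, 4436 and 4243 in the 18-month pools and 3590, 3895 and 3479 in the 30-month pools. The 30-month arrays all lay above the 6-month ones by a small margin, with a log2 change of 0.10 (95% interval -0.19 to 0.39, adjusted p = 0.759, limma). At 18 months 1 array was as low as the baseline and the change was 0.22 (-0.07 to 0.51), or 0.35 without that array and 0.14 without replicate 2. The other tested *Hk2* probe set had changes of 0.16 at 18 and 0.09 at 30 months, both with overlap. *Hk1*, the widespread form, had mean signals of 359, 342 and 373 at 6, 18 and 30 months, and its array values overlapped between ages.

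Phosphofructokinase commits the sugar to glycolysis and is its main point of control. Its muscle subunit gene *Pfkm* read 28747, 25008 and 24136 in the 6-month pools, 30179, 26925 and 31130 in the 18-month pools and 19164, 28844 and 27900 in the 30-month pools. The 3 ages overlapped, and replicate 1 of 30 months was the lowest of the 9 arrays (30 against 6 months -0.06, interval -0.43 to 0.32). The liver subunit gene *Pfkl* read 93.8, 154.5 and 60.5 in the 6-month pools, 151, 71.8 and 151 in the 18-month pools and 135, 158 and 108 in the 30-month pools, a scatter within each age that leaves its log2 change of 0.35 at 30 months with an interval of -0.29 to 0.98. Leaving out replicate 3 of 6 months gave 0.10, and leaving out replicate 2 gave 0.61. The platelet subunit gene *Pfkp* read 146, 135 and 124 at 6 months against 128, 92.6 and 91.4 at 18 months and 126, 91.4 and 106 at 30 months. Its changes were -0.31 (interval -0.63 to 0.02, adjusted p = 0.595, limma) and -0.26 (-0.58 to 0.06), with overlap in both. *Pfkfb1*, which encodes an enzyme that makes and removes the activator fructose 2,6-bisphosphate, ranged from 378 to 750.3 over the 9 arrays without separating the ages. Another tested probe set of *Pfkfb1* lay lower at 30 than at 6 months without overlap, with a log2 change of -0.72 (interval -1.297 to -0.13, adjusted p = 0.329, limma), and a further one lay lower at 30 than at 18 months without overlap (-0.12). *Pfkfb2*, another gene of that enzyme family, read 14.1 to 61.7 and did not pass the signal filter.

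Aldolase cleaves the 6-carbon sugar into a pair of 3-carbon sugars, and *Aldoa* encodes the muscle form. *Aldoa* read 40459, 34094 and 33210 in the 6-month pools, 41081, 41306 and 34706 in the 18-month pools and 40595, 46270 and 45578 in the 30-month pools. All 30-month arrays lay above all 6-month arrays, the closest pair being 40595 and 40459, while the 18-month arrays overlapped with both ages. The log2 change at 30 months was 0.30 (SE 0.13, interval 0.01 to 0.59, adjusted p = 0.370, limma), a ratio of mean signals of 1.23. After quantile normalization it was -0.02. *Aldoc*, the form typical of brain, read 1641, 1622 and 1475 in the 6-month pools, 1454, 1322 and 1089.5 in the 18-month pools and 1443, 1340 and 1296 in the 30-month pools. Both later ages lay below the baseline without overlap, with log2 changes of -0.30 at 18 months (SE 0.13, interval -0.58 to -0.0078, adjusted p = 0.576, limma) and -0.21 at 30 months (interval -0.50 to 0.08). The other tested probe set of *Aldoc* had changes of -0.17 and 0.27 at these ages, so the 2 probe sets lay on opposite sides at 30 months, where the other one also lay above its 18-month values without overlap (0.44).

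The middle of the pathway oxidises the 3-carbon sugar and regains the first ATP. *Gapdh*, the glyceraldehyde 3-phosphate dehydrogenase gene that many studies use as a reference, is measured on this array by control probe sets, which were left out of the fit. *Gapdh* also has many near-identical pseudogene copies, so its signal may not come from the one gene alone. Its strongest probe set read 41024, 32300 and 31816 in the 6-month pools, 40842, 35821 and 42590 in the 18-month pools and 37468, 41177 and 40632 in the 30-month pools, with overlap between all ages. With the control probe sets kept in the fit, its log2 changes were 0.19 (interval -0.11 to 0.49, adjusted p = 0.703, limma) at 18 months and 0.19 (-0.11 to 0.49, adjusted p = 0.555) at 30 months. The control probe set for the middle of the transcript had changes of 0.25 at both ages (adjusted p = 0.618 and 0.430, limma), without overlap at 30 months. *Pgk1*, which encodes phosphoglycerate kinase, the first ATP-making step, had mean signals of 8500.5 ± 311, 9142 ± 945 and 9145 ± 1064 (SD, n = 3), a log2 change of 0.10 at each later age (interval -0.18 to 0.38). The other tested *Pgk1* probe set lay higher at 18 than at 6 months without overlap, by 0.08, and overlapped with it at 30 months (0.01).

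Phosphoglycerate mutase shifts the phosphate group before the last energy-rich step, and has a muscle form, *Pgam2*, and a widespread form, *Pgam1*. *Pgam1* read 3586, 3852 and 3522 in the 6-month pools, 3021, 3531 and 2996 in the 18-month pools and 3374, 3207 and 3400 in the 30-month pools. Its 30-month arrays lay below the 6-month ones without overlap, by -0.13 on the log2 scale (interval -0.38 to 0.11), and its 18-month arrays overlapped with them (-0.20). Its other tested probe sets had changes of 0.10 and -0.22 at 30 months, both with overlap. *Pgam2* read 4332, 4323 and 3760 in the 6-month pools, 5160, 3944 and 4012 in the 18-month pools and 3605, 4094 and 3488 in the 30-month pools. Its largest change was -0.22 from 18 to 30 months (interval -0.53 to 0.09, adjusted p = 0.999, limma), where the ages overlapped. Without replicate 1 of 18 months it was -0.10.

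Enolase makes phosphoenolpyruvate, and *Eno3* encodes its muscle form. *Eno3* read 11841, 10880.5 and 12107 in the 6-month pools, 12550, 12204 and 15670 in the 18-month pools and 13786, 15924 and 13636 in the 30-month pools. Both later ages lay above the baseline without overlap. The log2 change was 0.21 at 18 months (interval -0.09 to 0.50, adjusted p = 0.669, limma) and 0.31 at 30 months (SE 0.13, interval 0.02 to 0.61, adjusted p = 0.364), a ratio of mean signals of 1.24. *Eno1*, the widespread form, read 8923, 7683 and 7640 in the 6-month pools, 8514, 6195 and 7148 in the 18-month pools and 7048, 6606 and 6499 in the 30-month pools. At 30 months it lay below the baseline without overlap (log2 change -0.26, interval -0.57 to 0.04, adjusted p = 0.447, limma), while its other tested probe set had a change of -0.02.

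At the end of glycolysis, *Pkm* encodes the pyruvate kinase of muscle. *Pkm* read 20766, 17825 and 16778 in the 6-month pools, 22398, 20384 and 20419 in the 18-month pools and 21106, 22095 and 20121 in the 30-month pools. Replicate 1 of 6 months was as high as the later arrays, so the ages overlapped, with changes of 0.20 at each later age (interval -0.07 to 0.46 at 18 months). *Pklr*, the liver and red cell form, read 9.3 to 59.7 and did not pass the filter. *Ldhb*, the heart-type subunit of lactate dehydrogenase, which interconverts pyruvate and lactate, read 9377, 7454 and 6822 in the 6-month pools, 7935, 8080 and 7798 in the 18-month pools and 8532, 7344 and 7882 in the 30-month pools. Its means of 7884, 7938 and 7920 differed by less than the spread at 6 months, with log2 changes of 0.02 at both later ages (interval -0.28 to 0.32 at 18 months). The direction at 18 months turned without replicate 2 or 3 of 6 months and after quantile normalization. The other *Ldhb* probe set read differently: both later ages lay above the baseline without overlap, with a change of 0.22 at each (adjusted p = 0.593 at 18 months, limma).

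**Figure D3:**
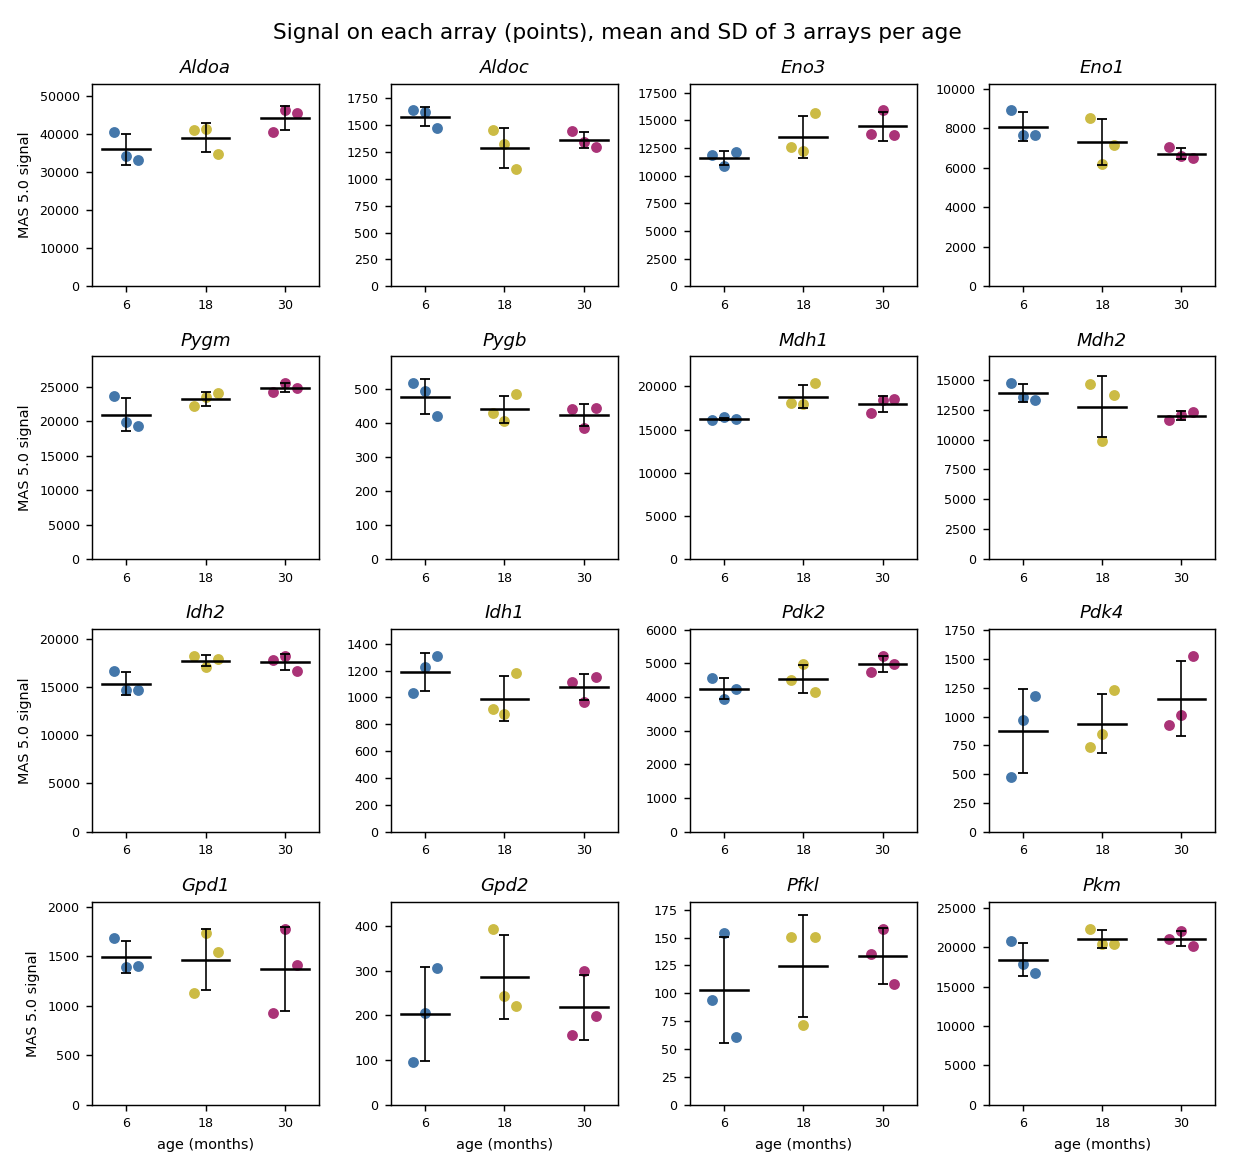
MAS 5.0 signal (y axis, linear, from 0) of 16 members on each array (points) by age in months (x axis), with the mean (bar) and SD of 3 arrays. *Aldoa*, *Eno3*, *Pygm*, *Pdk2* and *Mdh1* lie higher at 30 than at 6 months without overlap and *Aldoc*, *Eno1* and *Mdh2* lower, none past the adjusted threshold. *Gpd2*, *Pfkl* and *Pdk4* scatter widely within each age, *Pdk4* in the order of the replicate numbers.

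The arrays of 2 ages did not overlap in 4 of 34 members at 18 against 6 months, or 11.8%, against 13.7% of all tested probe sets. Of these, 3 were higher (*Eno3*, *Idh2* and *Mdh1*, 8.82% against 5.32% of all) and 1 lower (*Aldoc*, 2.94% against 8.35%). At 30 against 6 months there were 10, or 29.4%, against 22.2%. Of these 10, 6 were higher (17.6% of the members, against 7.40% of all probe sets), namely *Hk2*, *Aldoa*, *Eno3*, *Pygm*, *Pdk2* and *Mdh1*. The other 4 were lower (11.8%, against 14.8%), namely *Aldoc*, *Pgam1*, *Eno1* and *Mdh2*. Of the 34 members 25 are among the 1049 brightest probe sets, whose median change at 30 against 6 months was 0.04, against -0.05 over all. The shares over all probe sets are therefore not those of probe sets of like signal, which were not computed. From 18 to 30 months *Pygm* was the only such member, 2.94% of the 34 against 7.36% of all probe sets. It was higher, as were 3.18% of all, and 0 members were lower, against 4.18%.

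Muscle and other forms of 1 enzyme were also set against each other within each array, as the difference of their log2 signals, a measure that does not depend on a scaling factor common to the whole array. Pairs of this kind, and pairs of a mitochondrial and a cytosolic form or of kinase forms, numbered 11 and were formed with the values known. Over 3 comparisons this made 33 exact two-sided permutation tests of 3 against 3 arrays. The smallest p such a test can give is 0.1, so no pair could pass, and after Benjamini-Hochberg adjustment over the 33 the smallest value was 0.412.

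The log2 ratio of *Eno3* to *Eno1* was 0.41, 0.50 and 0.66 on the 6-month arrays, 0.56, 0.97 and 1.13 in the 18-month pools and 0.96, 1.27 and 1.07 in the 30-month pools. The 30-month arrays lay above the baseline without overlap, by 0.58 (exact permutation p = 0.1, adjusted p = 0.412), and the 18-month arrays overlapped with it (0.36, exact permutation p = 0.2). With the other probe set of *Eno1* the shift at 30 months was 0.33, again without overlap.

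For *Aldoa* over *Aldoc* the log2 ratio was 4.60, 4.37 and 4.46 in the 6-month pools, 4.79, 4.93 and 4.95 in the 18-month pools and 4.78, 5.08 and 5.10 in the 30-month pools. Both later ages lay above the baseline without overlap, by 0.42 and 0.51 (exact permutation p = 0.1 each). The other *Aldoc* probe set gave 0.29 and 0.03, with overlap in both, and quantile normalization gave 0.08 and 0.18.

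The ratio of *Pygm*, the muscle glycogen phosphorylase gene, to *Pygb*, the brain form, was 5.43, 5.24 and 5.42 in the 6-month pools, 5.58, 5.75 and 5.55 in the 18-month pools and 5.67, 5.93 and 5.70 in the 30-month pools. Neither later age overlapped with the baseline, with shifts of 0.26 and 0.41 (exact permutation p = 0.1 each). Other probe sets of the pair gave shifts at 30 months of 0.12, 0.19 and 0.34, the first of which overlapped, and at 18 months 0.19 to 0.57, all without overlap. Quantile normalization gave 0.05 at 18 months and 0.17 at 30 months.

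Other muscle pairs did not separate the ages in this way at 30 months. *Hk2* over *Hk1* shifted by 0.05 at 30 months (exact permutation p = 0.5), *Pgam2* over *Pgam1* by -0.02 (exact permutation p = 1) and *Pfkm* over *Pfkl* by -0.40 (exact permutation p = 0.3). *Pfkm* over *Pfkp* shifted by 0.49 at 18 months without overlap (exact permutation p = 0.1) and by 0.21 at 30 months with overlap. The other *Pfkm* probe set gave 0.30 at 18 months, with overlap, and quantile normalization 0.18.

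**Figure D4:**
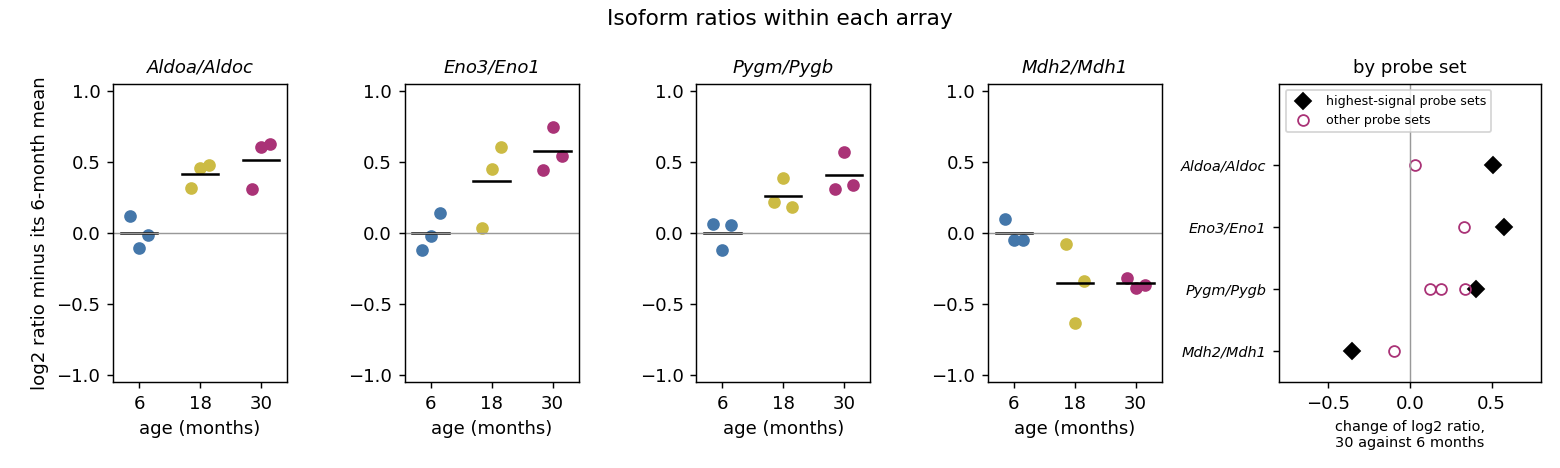
Log2 ratio of 2 isoforms within each array, minus its 6-month mean (y axis), by age in months (points, arrays; bars, means of 3), for 4 pairs, and in the last panel the change at 30 against 6 months by choice of probe sets. *Aldoa*/*Aldoc*, *Eno3*/*Eno1* and *Pygm*/*Pygb* lie higher at 30 months and *Mdh2*/*Mdh1* lower, and the open circles of other probe sets lie nearer 0 than the diamonds.

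The glycerol phosphate shuttle carries reducing power from the cytosol to the mitochondrion. Its cytosolic enzyme gene *Gpd1* read 1686, 1397 and 1401 in the 6-month pools, 1126, 1736 and 1542 in the 18-month pools and 928, 1782 and 1411 in the 30-month pools, with complete overlap (log2 change at 30 months -0.16, interval -0.69 to 0.37). The mitochondrial enzyme gene *Gpd2* read 96.4, 204 and 307 in the 6-month pools, 395, 243 and 221 in the 18-month pools and 157, 299 and 199 in the 30-month pools. Its change of 0.51 at 18 months was the largest of the 34 members in that comparison, and its interval of -0.28 to 1.297 was the widest (adjusted p = 0.687, limma). Without replicate 1 of 6 months, the lowest array, the change at 18 months was 0.13. Its other tested probe sets had changes of -0.17 and -0.22.

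In glycogen breakdown, *Pygm* read 23699.5, 19871 and 19305 in the 6-month pools, 22159, 23488 and 24126 in the 18-month pools and 24215, 25555 and 24774 in the 30-month pools. Its 30-month arrays lay above those of both earlier ages, by 0.25 against 6 months (SE 0.11, interval -0.0059 to 0.51, adjusted p = 0.393, limma) and by 0.10 against 18 months (interval -0.16 to 0.35, adjusted p = 0.999). After quantile normalization the change at 30 against 6 months was 0.06, and the other probe set of *Pygm* had one of 0.04. *Pygb* had mean signals of 477 ± 51.4, 441 ± 40.3 and 425 ± 32.8 (SD, n = 3), with overlap. The other tested *Pygb* probe set lay lower at 18 than at 6 months without overlap, by -0.42 (interval -0.73 to -0.11, adjusted p = 0.477, limma), and higher at 30 than at 18 months without overlap (0.33). *Pygl*, the liver form, read 2.8 to 34.2 and did not pass the filter. Phosphorylase kinase switches phosphorylase on when calcium rises, and its regulatory and catalytic subunit genes of muscle, *Phka1* and *Phkg1*, had log2 changes at 30 months of 0.14 (interval -0.26 to 0.54) and -0.21 (-0.46 to 0.05). Of the 4 tested glycogen members, 2 were higher and 2 lower in each comparison, and 0 passed.

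Pyruvate enters the mitochondrial pathway through the pyruvate dehydrogenase complex. Its component genes *Pdha1*, *Pdhb* and *Dlat* had log2 changes of 0.12, 0.0021 and 0.19 at 18 months and of 0.08, -0.04 and 0.14 at 30 months. *Pdha1*, the catalytic α subunit, was the steadiest member, with mean signals of 11201 ± 755, 12141 ± 316 and 11831 ± 551 (SD, n = 3), and its interval at 30 months ran from -0.16 to 0.31.

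The kinases that phosphorylate and inactivate the complex differed in how closely their arrays agreed. *Pdk2* read 4564, 3947 and 4235 in the 6-month pools, 4492, 4979 and 4158 in the 18-month pools and 4737, 5226 and 4986 in the 30-month pools. The 30-month arrays lay above the baseline without overlap (log2 change 0.23, interval -0.03 to 0.49, adjusted p = 0.425, limma), and its other probe set lay higher at both ages without overlap, by 0.30 at 18 and 0.35 at 30 months (adjusted p = 0.576 and 0.327). *Pdk4*, the form that fasting and fat use induce, read 476, 970 and 1180 in the 6-month pools, 737, 847 and 1227 in the 18-month pools and 927, 1012 and 1527 in the 30-month pools. Its change of 0.45 at 30 months was the largest of the members in that comparison, but the ages overlapped (interval -0.28 to 1.18, adjusted p = 0.568, limma), and without replicate 1 of 6 months it was 0.07. *Pdk1* ranged from 223 to 290.1 over the 9 arrays. All 6 tested members of this section lay above 0 at 18 months, and 4 of 6 at 30 months, with 0 past the threshold. Over all tested probe sets 42.3% and 41.2% lay above 0. The direction depended on the probe set: other tested ones of *Pdhb* and *Dlat* lay below 0 at 18 months (-0.17 and -0.07). Those of *Pdha1* and a further one of *Dlat* lay above it (0.11 and 0.08).

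*Cs*, citrate synthase, the first enzyme of the cycle and a common gauge of mitochondrial content, had mean signals of 2424 ± 63.3, 2334 ± 213 and 2332 ± 187 (SD, n = 3), with a log2 change of -0.06 at each later age (interval -0.32 to 0.20). *Idh3g*, a regulatory subunit of the NAD-linked isocitrate dehydrogenase, had changes of -0.09 and -0.05, and *Suclg1*, a subunit of the enzyme that makes GTP or ATP from succinyl-CoA, had 0.08 and 0.06. Of the 7 tested members of the cycle, 3 were higher and 4 lower at both 18 and 30 months against 6 months, with 0 past the threshold.

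The NADP-linked isocitrate dehydrogenases lie in the mitochondrion (*Idh2*) and the cytosol (*Idh1*). *Idh2* read 16671, 14635 and 14654 in the 6-month pools, 18181, 17083 and 17843 in the 18-month pools and 17792, 18224 and 16649 in the 30-month pools. The 18-month arrays lay above the baseline without overlap (log2 change 0.21, interval -0.03 to 0.45, adjusted p = 0.614, limma), and at 30 months the change was 0.20 with overlap. Its other probe set had changes of 0.29, without overlap, and 0.19, with overlap. *Idh1* read 1037, 1224.5 and 1311 in the 6-month pools, 917, 876 and 1182 in the 18-month pools and 1113, 968 and 1152 in the 30-month pools, with overlap throughout and a largest change of -0.26 at 18 months (interval -0.60 to 0.07), which was -0.39 without replicate 3 of 18 months.

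Malate dehydrogenase closes the cycle in the mitochondrion (*Mdh2*) and serves the malate-aspartate shuttle in the cytosol (*Mdh1*). *Mdh1* read 16109, 16414 and 16184 in the 6-month pools, 18132, 17950 and 20416 in the 18-month pools and 16878, 18452 and 18596 in the 30-month pools. Both later ages lay above the baseline without overlap, by 0.21 (interval -0.03 to 0.45, adjusted p = 0.614, limma) and 0.15 (-0.09 to 0.38). After quantile normalization the change at 18 months was 0.04. *Mdh2* read 14743, 13538 and 13340 in the 6-month pools, 14637, 9883 and 13763 in the 18-month pools and 11594, 12056 and 12316 in the 30-month pools, which lay below the baseline without overlap (-0.21, interval -0.55 to 0.13, adjusted p = 0.564). The within-array ratio of *Mdh2* to *Mdh1* lay below the baseline at both ages, by -0.35 each (exact permutation p = 0.1), and without replicate 2 of 18 months the shift at that age was -0.21. With the other *Mdh2* probe set, which had changes of 0.14 (higher without overlap) and 0.05, the shifts were -0.07 and -0.09 with overlap. Quantile normalization gave a shift of -0.25 at 30 months with the probe sets used. The other pairs of a mitochondrial and a cytosolic form shifted the opposite way against 6 months, with overlap. *Idh2* over *Idh1* shifted by 0.47 at 18 and 0.34 at 30 months, and *Gpd2* over *Gpd1* by 0.55 and 0.33. The kinase pair *Pdk4* over *Pdk2* shifted by 0.06 and 0.22, also with overlap.

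Agreement between probe sets of the same gene was limited over the members as a whole. For 20 tested members, 26 further probe sets passed the filter. At 18 against 6 months 16 of the 26 lay on the same side of 0 as the probe set used, at 30 against 6 months 15, and at 30 against 18 months 15. With the log2 values of all probe sets of a gene averaged, the members' medians were 0.06, 0.01 and 0.0013.

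Neighbouring genes of the same pathways, which are not on the list of members, were read from the same fit. Of 70 symbols for glucose and lactate transport, gluconeogenesis, glycogen handling, the rest of the cycle and the pentose phosphate path, 36 were found and 29 tested, and 0 passed the threshold in either direction in any comparison. *Pgm1*, phosphoglucomutase, which links glycogen to glycolysis, read 4950, 5793 and 6096 in the 6-month pools, 7003, 7392 and 6784 in the 18-month pools and 6783, 7595 and 7126 in the 30-month pools, higher at both later ages without overlap (log2 changes 0.33 and 0.35, adjusted p = 0.509 and 0.313, limma). *Taldo1*, a transaldolase of the pentose phosphate path, lay higher at 18 months without overlap (0.34, adjusted p = 0.532, limma). *Mpc1*, a subunit of the mitochondrial pyruvate carrier, did so at 30 months (0.21, interval -0.33 to 0.75, adjusted p = 0.721, limma), while its 18-month arrays ranged from 9025 to 19474.5. *Pdhx*, which anchors a component of the pyruvate dehydrogenase complex, lay lower at 30 months than at 6 months (-0.27) and than at 18 months (-0.18) without overlap. In all, 2 of the 29 lay higher and 0 lower without overlap at 18 against 6 months, against 5.32% and 8.35% of all tested probe sets. At 30 against 6 months 2 lay higher and 1 lower, against 7.40% and 14.8%. From 18 to 30 months 0 lay higher and 3 lower, against 3.18% and 4.18%. Pyruvate carboxylase, which the list names *Pcx*, is annotated as *Pc* on the array. It had a change of -0.46 at 30 months with overlap (adjusted p = 0.353, limma).

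Bulk RNA cannot tell fewer cells of a type from less RNA per cell. Of 10 skeletal muscle markers 9 were found and all 9 passed the filter, and their summed signal was 150588 to 173667 at 6 months, 180615 to 218327 at 18 months and 184997 to 203356 at 30 months, higher at both later ages without overlap. No single muscle marker passed the threshold (smallest adjusted p = 0.220, *Myh2* at 18 months, limma). *Acta1*, *Myh4* and *Tnni2* overlapped with 6 months at both later ages, and *Tnnt3* at 18 months. The 6 fibroblast and matrix markers summed to 16375 to 20813 at 6 months, 11838 to 12960 at 18 months and 13214 to 13429 at 30 months, lower at both later ages without overlap. Among them the collagen genes *Col1a1*, *Col1a2* and *Col3a1* fell at 30 against 6 months, with log2 changes of -1.25, -1.35 and -1.42 (adjusted p = 0.0252, 0.00920 and 0.0418, limma), and *Col1a2* also at 18 months (-1.11, adjusted p = 0.0168). *Lum* and *Fn1* lay lower at both later ages without overlap but did not pass the threshold. *Dcn*, the strongest of the 6, lay lower at 18 months without overlap (-0.32). At 30 months *Dcn* overlapped with 6 months (-0.09, adjusted p = 0.731, limma) and lay higher than at 18 months without overlap (0.225). The muscle and matrix sums differed between the same ages as the isoforms above, and their part in those values was not tested. Among the other marker lists, the sums of 5 adipocyte, 3 macrophage and 5 smooth muscle and endothelial markers overlapped between ages. The macrophage markers differed in direction. *Cd14* lay lower at 30 than at 6 months without overlap (-0.59, adjusted p = 0.299, limma). *Lyz2* and *Csf1r*, which was under the filter, overlapped there but lay higher at 30 than at 18 months without overlap (0.52 and 0.32). The sums of 2 Schwann cell and 4 liver markers lay lower at 18 and 30 months without overlap, but not every marker in them did. *Pmp22* and *Apoa1* lay lower at both ages without overlap. *Mbp* and *Alb* did so at 30 months only, and *Pklr* and *Gys2* overlapped at both. Of the cartilage and epithelial markers found, 0 of 4 and 0 of 3 passed the filter. The cartilage marker *Col2a1* read 9.9 to 28.1 and the epithelial marker *Krt5* 3.3 to 15. The defining markers *Adipoq* and *Cd68* were not matched. The liver marker *Alb* read 14.9 to 65.9, and 1 of 4 liver markers passed. The haemoglobin gene *Hbb* read 11253 to 14261 at 6 months and 13746 to 17845 at 30 months, with overlap. *Tg*, thyroglobulin, of the neighbouring thyroid gland, read 628 on replicate 3 of 18 months and 555 on replicate 3 of 30 months, against 30.2 to 109 on the other 7 arrays. With either of these arrays left out, the count of members past the threshold was 0 in each comparison. It was already 0 with all 9 arrays, so these fits cannot show whether thyroid tissue affected the members. The 2 arrays were not left out together. The other thyroid marker found, *Tshr*, read 207, 151 and 208 at 6 months. It read 300, 223 and 245 at 18 months and 259, 214 and 267 at 30 months. Both later ages of *Tshr* lay higher without overlap (adjusted p = 0.554 and 0.392, limma). Replicate 3 did not stand out in *Tshr* at 18 or 30 months as it did in *Tg*. The 2% trimmed mean of the signal was 500.87 to 500.97 on the 9 arrays.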

How the data were processed

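RNA from 9 pools of rat posterior cricoarytenoid muscle was measured on 1-channel oligonucleotide arrays. Per the labels' design text and the submitters' processing notes, the authors computed the deposited signal intensity with MAS 5. The values are on a linear scale with nearly equal trimmed means, as arrays scaled to a common target have. No source used here names a genome build. The authors' own difference calls were not used. From 8799 probe sets, 59 controls were set aside before fitting. Among the other 8740, 7006 carry 1 gene symbol, 308 several and 1426 none in the platform annotation. Signals were analysed as log2(signal + 32), and the upper 60% by mean, 5244 probe sets, were tested by limma (version 3.58.1, under R 4.3.3), with 1 mean per age and 9 arrays in 1 fit, 6 residual and 3.69 prior degrees of freedom. P-values are two-sided, adjusted by Benjamini and Hochberg over 5244 at 0.05, and measure the spread between pools. The code was tested on simulated data. Members and lists were chosen with earlier results of these data known. Each array's signals were given for members without overlap between 2 ages and a change of at least 0.3, for the largest change in each isoform family, and for further members chosen after their values were seen. Alternatives covered the pseudocount, filter, scaling, probe set choice, replicate block and left-out arrays. Keeping the control probe sets, and the isoform ratios with their alternatives, were added after seeing the data, and the ratios were compared by exact permutation tests.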

Additional observations from a re-analysis of the deposited data

How the results depend on the processing

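The count of members past the threshold was 0 in each of the 4 tests under each alternative run for that test: pseudocounts of 8 and 64, no filter, the upper 40% of probe sets (32 members), quantile normalization, the replicate block, only the arrays of the compared ages, control probe sets kept, the fold rule, and 9 fits without 1 array. The smallest adjusted p of a member over all of them was 0.282, from the 6- and 30-month arrays alone. Arrays that share a replicate number had correlations of their deviations from -0.02 to 0.26, with 8 of 9 above 0 and 4 over 0.1, against -0.21 to 0.15 for different numbers, and 5 of 9 arrays correlated best with their own number at both other ages. Not every pair was over 0.1, so the arrays were treated as unpaired. With the replicate block, which cannot move the estimates of this balanced design, the smallest adjusted p of a member was 0.496, 0.318 (*Pdk4*, from 0.568) and 0.999. After quantile normalization the medians at 18 and 30 months against 6 months were -0.0087 and -0.0139, the change of *Aldoa* at 30 months was -0.0159 and that of *Ldhb* at 18 months -0.0198, while that of *Pygm* at 30 months was 0.06 and that of *Mdh1* at 18 months 0.04. Without 1 array in turn the medians ran from 0.05 to 0.09, from -0.0019 to 0.10 and from -0.04 to 0.0011 (18 against 6, 30 against 6 and 30 against 18 months), and the change of *Ldhb* at 18 months from -0.07 to 0.15 (-0.0111 and -0.0747 without replicates 2 and 3 of 6 months). The causes were not tested. Over all probe sets the counts in the order 18 against 6, 30 against 6 and 30 against 18 months were 4, 17 and 1. They were 75, 117 and 33 by the fold rule. The replicate block gave 11 at 30 against 6 months and 0 at 30 against 18 months, where no filter gave 4 and the larger pseudocount and the upper 40% gave 0. The compared ages alone gave 0 at 18 against 6 and 30 against 18 months. Without 1 array the ranges were 0 to 5, 0 to 20 and 0 to 1. The compared ages alone and the fold rule were not run for the F-test. With 3 arrays per age the members' intervals, which are not adjusted for the number of tests, give the precision but not the limit of detection.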
